A study of Mus musculus with 2 samples.

Results

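Platelet-derived growth factor (PDGF) signalling was examined in primary hepatocytes of control mice and of mice with liver injury. The set comprised the 4 ligand genes Pdgfa, Pdgfb, Pdgfc and Pdgfd, the 2 receptor genes Pdgfra and Pdgfrb, and the receptor-like gene Pdgfrl. These 7 genes were taken by name from the 20313 genes of the mRNA table to which a mouse symbol could be matched, and the rule that names them uses no measured value. The set was nevertheless chosen with earlier results of these data known. RNA-seq was performed on 1 library of control mice, injected with oil, and 1 of mice given carbon tetrachloride (CCl4), a solvent that hepatocytes convert to a toxic radical and that causes fibrosis when it is given repeatedly. Both libraries came from the livers of wild-type C57BL/6J mice, and the methods describe the animals as 5-week-old males. Each dose, 2.5 ml CCl4 per kg diluted to 20% in mineral oil, was given into the peritoneal cavity, and 2 doses were given a week. The labels put the duration at 8 weeks and the methods at 4 weeks. Hepatocytes were separated by enzymatic perfusion and a density gradient, which enriches hepatocytes without removing all other liver cells, and the number of mice behind each library was not stated in the sources used here.

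PDGF chains pair into dimers that bring receptor chains together at the cell surface, whereupon the receptors phosphorylate each other and recruit signalling proteins. The alpha receptor binds the A, B and C chains, and the beta receptor binds the B and D chains. In the liver the ligands are made by platelets, macrophages, endothelial cells and injured epithelium, whereas both receptors are carried chiefly by mesenchymal cells such as hepatic stellate cells and portal fibroblasts. PDGF is among the strongest known signals for stellate cells to divide and migrate during fibrosis, and the study itself used Pdgfa as a profibrotic factor.

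The promoters of Pdgfra, Pdgfa and Pdgfd are shown because, among the 5 genes with a value in both libraries, they had the largest fold change, an intermediate one and the smallest one. Each window holds the 250 bases before an annotated start, from RefSeq on GRCm38.p6, read 5′ to 3′ on the gene's own strand. Capitals mark a GGGCGG motif (a GC box, or CCGCCC where it lies on the other strand) or a TATAAA motif. Pdgfra is at chr5:75152001-75152250 on the plus strand and Pdgfa at chr5:138994945-138995194 on the minus strand. Both windows lie inside the annotated gene span, since the starts they precede are 929 and 5848 bases into it. The Pdgfd window, chr9:6168236-6168485 on the plus strand, reaches 123 bases into the span, and only the 127 bases before the span are printed (chr9:6168236-6168362).
Pdgfra: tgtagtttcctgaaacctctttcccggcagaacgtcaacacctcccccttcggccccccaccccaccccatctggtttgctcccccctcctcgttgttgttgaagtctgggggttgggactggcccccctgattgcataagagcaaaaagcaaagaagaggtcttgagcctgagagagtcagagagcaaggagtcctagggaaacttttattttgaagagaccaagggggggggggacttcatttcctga
Pdgfa: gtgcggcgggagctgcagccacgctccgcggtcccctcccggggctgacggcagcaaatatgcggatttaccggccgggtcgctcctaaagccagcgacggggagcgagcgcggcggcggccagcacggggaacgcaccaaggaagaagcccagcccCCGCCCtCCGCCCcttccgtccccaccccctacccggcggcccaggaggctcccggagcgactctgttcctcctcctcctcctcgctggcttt
Pdgfd: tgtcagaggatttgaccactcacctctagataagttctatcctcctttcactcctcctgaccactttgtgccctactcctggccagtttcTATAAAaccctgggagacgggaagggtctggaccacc

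The 3 windows of 250 bases differed in composition. The Pdgfa promoter held 72.4% G and C, against 54.4% for Pdgfra, 53.6% for Pdgfd and a median of 52.4% over all promoters of the table. It carried 2 GC boxes, 93 and 86 bases before the start, and the promoter of a second, downstream Pdgfa start (66.4% G and C) carried 1, at 60 bases. A single TATAAA lay in the Pdgfd window, 160 bases before the start it was drawn from and 37 bases before the first base of the gene span. The Pdgfra and Pdgfc promoters held neither motif, and no CCAAT motif was found in any of these 5 windows. Searched on both strands of the 32851 promoters of that length, GGGCGG was present in 32.7%, TATAAA in 12.4% and CCAAT in 33.8%. The letters of these 3 motifs share no overlapping match in the windows shown. Matches are descriptions of the sequence and were not tested for binding. Promoters of 4 of the 7 genes were matched in the table.

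Transcript levels were deposited as RPKM, reads scaled to transcript length and library size, so that levels can be compared between genes per length. Values under 1 RPKM were listed as 0, and a listed 0 therefore means anything below 1 RPKM. Fold changes are log2 of the CCl4 over the oil value after adding 0.1 RPKM to each, which slightly understates the change of low genes, and a gene was called higher or lower where this value reached 1 in either direction. The depth recovered from the steps between low RPKM values of annotated genes was 57992574 reads for the oil library and 64655548 for the CCl4 library. The lncRNAs absent from the annotation were scaled to other totals, 62438197 and 70960849 reads, and why these differ was not tested. With 1 library per condition no difference has a replicate check and no test was made. The 95% intervals are exact (Poisson for a level, Clopper-Pearson for a ratio) and express nothing but counting error, which PCR duplicates make larger than it appears.

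All 7 genes had a higher value in the CCl4 library, as did most genes with a value in both libraries. Of the 5 PDGF genes with a value in both libraries, 3 were called higher (Pdgfa, Pdgfb and Pdgfra) and 0 lower. Of all 10686 genes with both values, 14.3% were called higher and 5.48% lower. The other PDGF genes, Pdgfrb and Pdgfrl, were listed at 0 in the oil library, as were 9.81% of the 11848 genes listed in the CCl4 library. Their higher value in CCl4 follows from that listing. The median gene had itself a log2 fold change of 0.30. Scaling both libraries to that median left 854 genes higher and 1038 lower in place of 1527 and 586, and every one of the 5 genes kept its direction, with log2 fold changes of 0.95 for Pdgfa, 1.52 for Pdgfb, 0.52 for Pdgfc, 0.38 for Pdgfd and 3.05 for Pdgfra. Pdgfa thereby fell below the threshold.

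**Figure D1:**
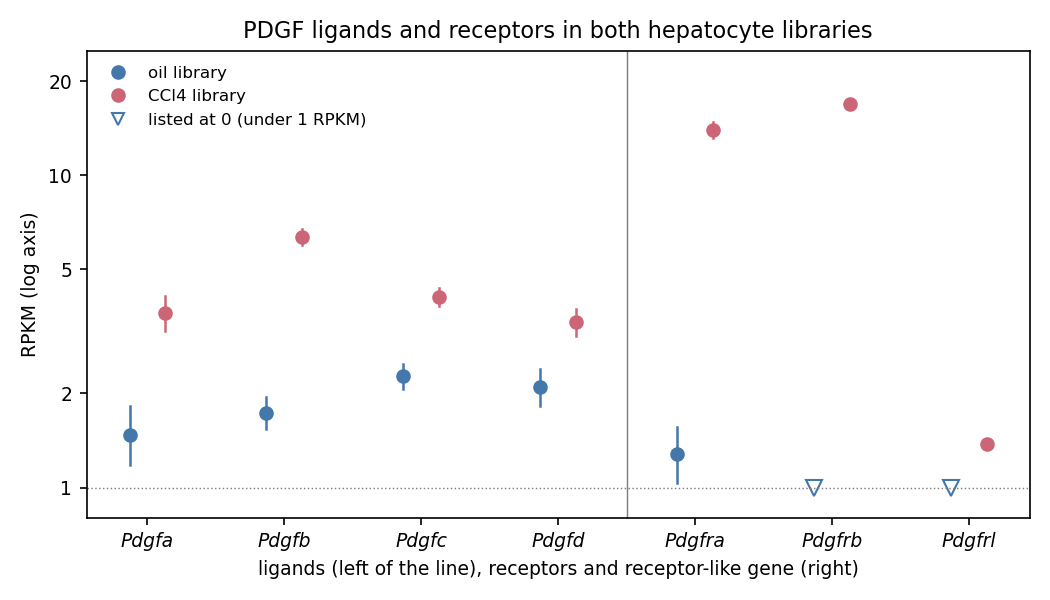
Level of each PDGF gene in RPKM on a log axis, in the oil library (blue) and the CCl4 library (red), with 95% counting intervals as vertical lines where reads could be recovered and open triangles at 1 RPKM for values listed as 0. The 4 ligands lay between 1.47 and 2.27 RPKM in oil and between 3.39 and 6.35 RPKM in CCl4, and Pdgfra and Pdgfrb reached 13.9 and 16.8 RPKM in CCl4.

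The ligands were low in both libraries and close to each other in the oil library. Pdgfb, which encodes the B chain, the ligand of both receptors, was the ligand with the largest difference. Its transcript NM_011057 (gene at chr15:79995865-80024614) was at 1.73 RPKM in the oil library (interval 1.54 to 1.94) and at 6.35 RPKM in the CCl4 library (5.99 to 6.71). The log2 fold change was 1.81, with 271 of the 10686 genes showing a larger one. The ratio without the added value was 3.66-fold, and its counting interval on the log2 scale ran from 1.69 to 2.06. Behind these levels stood no fewer than 296 and 1207 reads.

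Pdgfa, which encodes the A chain, the ligand of the alpha receptor, followed with the second largest difference among the ligands. NM_008808 (gene at chr5:138976014-139000792) was at 1.47 RPKM in the oil library (interval 1.18 to 1.82) and at 3.62 RPKM in the CCl4 library (3.17 to 4.11). Its log2 fold change of 1.24 was larger than that of 91.1% of genes. The ratio was 2.45-fold with a log2 counting interval of 0.93 to 1.67, which extends below the threshold of 1, and it rested on at least 87 reads in oil and at least 238 in CCl4.

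Pdgfc and Pdgfd encode chains that are secreted in a latent form and must be cleaved before they bind a receptor. Neither was called. Pdgfc (NM_019971, gene at chr3:81036416-81214040) had 2.27 RPKM in the oil library (interval 2.07 to 2.48) and 4.07 RPKM in the CCl4 library (3.82 to 4.34). Its log2 fold change was 0.82 and its ratio 1.80-fold, from at least 462 and at least 925 reads. The log2 counting interval of that ratio, 0.68 to 1.01, just reached 1.

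Pdgfd (NM_027924, gene at chr9:6168363-6534284), whose D chain binds the beta receptor, differed least. It had 2.09 RPKM in the oil library (interval 1.83 to 2.39) and 3.39 RPKM in the CCl4 library (3.06 to 3.74), from at least 218 and at least 393 reads. The log2 fold change of 0.67 lay above that of 73.0% of genes, and the ratio of 1.62-fold had a log2 counting interval of 0.45 to 0.94. For each of the 4 ligands the intervals of the oil and CCl4 levels did not overlap. The share of all genes for which this holds was not computed, so nothing particular to the ligands is read from it.

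The order of the ligands was not the same in the libraries. In oil the sequence from high to low was Pdgfc, Pdgfd, Pdgfb and Pdgfa, and each neighbouring pair in it had overlapping counting intervals, which may be wider than the true reads would give. In CCl4 Pdgfb stood highest, above Pdgfc, with intervals that did not overlap, while Pdgfc, Pdgfa and Pdgfd followed with intervals overlapping between neighbours. Summed over the 4 ligands, the level was 7.57 RPKM in oil and 17.4 RPKM in CCl4, a ratio of 2.30-fold. Pdgfb made up 22.9% of that sum in oil and 36.4% in CCl4.

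**Figure D2:**
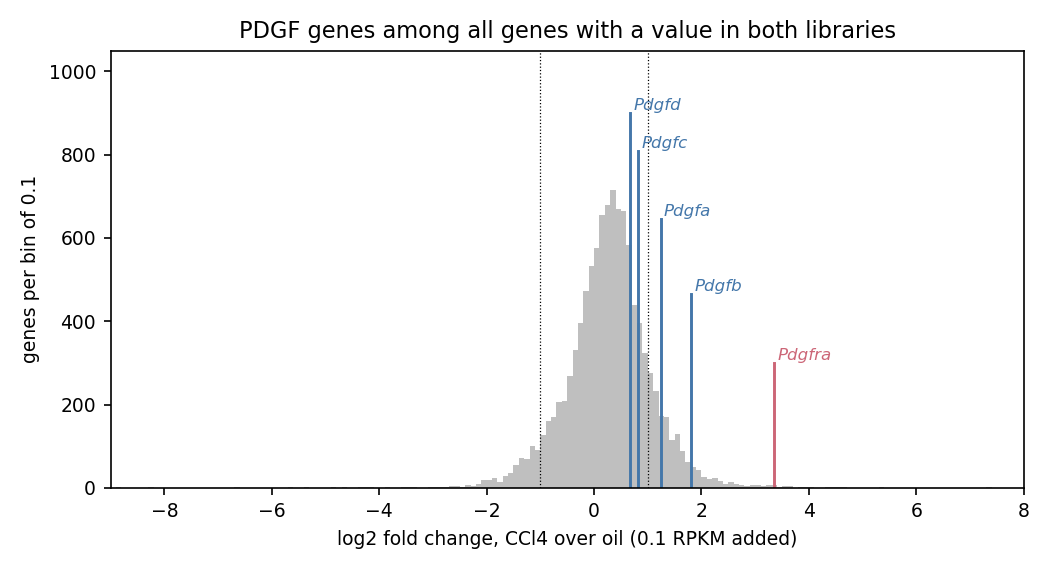
Distribution of the log2 fold change (CCl4 over oil, 0.1 RPKM added) over the 10686 genes with a value in both libraries, in bins of 0.1, with the 4 ligands (blue lines) and Pdgfra (red line) marked; line height carries no value and dotted lines stand at -1 and 1. The ligands lie on the right shoulder of the distribution, from 0.67 to 1.81, and Pdgfra lies in its tail at 3.35.

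The receptors stood further apart between the libraries than any ligand. Pdgfra, the alpha receptor, a tyrosine kinase and a common marker of fibroblasts, was the lowest of the 5 genes with a value in the oil library. Its transcript NM_011058 (gene at chr5:75151322-75198206) was at 1.28 RPKM there (interval 1.03 to 1.56) and at 13.9 RPKM in the CCl4 library (13.1 to 14.8). Its log2 fold change was 3.35, and only 24 of the 10686 genes had a larger one. The ratio of 10.9-fold had a log2 counting interval of 3.15 to 3.77, from at least 94 and at least 1145 reads. A second Pdgfra transcript, NM_001083316, was at 1.24 and 13.3 RPKM. The log2 fold change of Pdgfra exceeded that of Pdgfb, the highest ligand, by 1.54, and the counting intervals of their ratios did not overlap.

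Pdgfrb, the beta receptor, through which PDGF-B acts on stellate cells and pericytes, was the most abundant gene of the set in the CCl4 library. It was listed at 0 in the oil library and at 16.8 RPKM in the CCl4 library, with the same values for both of its transcripts to 3 digits (NM_008809 and NM_001146268, gene at chr18:61045127-61085067). No fold is given here against a listed 0. Among the 1162 genes listed at 0 in oil but not in CCl4, whose median CCl4 level was 1.57 RPKM, Pdgfrb had the third highest level. The genes above it were Mmp2, a gelatin-degrading protease, at 28.2 RPKM and Tcf21, a transcription factor of mesenchymal cells, at 20.8 RPKM. Pdgfrb was 1.21 times as abundant as Pdgfra per length, and its level was above that of 77.4% of the genes listed in the CCl4 library.

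Pdgfrl encodes a secreted protein that resembles the extracellular part of a PDGF receptor and lacks a kinase domain. NM_026840 (gene at chr8:40926233-40990782) was listed at 0 in the oil library and at 1.38 RPKM in the CCl4 library, close to the 1 RPKM limit. It took place 749 among the 1162 genes listed at 0 in oil only, and Pdgfra was 10.1 times as abundant in CCl4. A listed 0 and 1.38 RPKM may therefore differ by little.

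The relation of ligand to receptor transcripts was reversed between the libraries. In the oil library each of the 4 ligands was above both receptors in value, although the counting intervals of Pdgfa and Pdgfb, which lower bounds of the reads can only make wider, each overlapped that of Pdgfra, and in the CCl4 library both receptors were above each of the 4 ligands. The summed ligand level was 5.93 times the summed level of Pdgfra and Pdgfrb in oil when the listed 0 of Pdgfrb was taken as 0, and 3.33 times when it was set to the limit of 1 RPKM. In CCl4 the sum of the receptors was 30.8 RPKM, and the ligands came to 0.566 times that. The median log2 fold change was 1.03 over the 4 ligands, against 0.30 over all genes and 3.35 for Pdgfra, the only receptor with both values.

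Markers of stellate cells, which carry PDGF receptors, were also higher in the CCl4 library. The marker lists were chosen with earlier results of these data known. Of 10 markers of quiescent stellate cells, the 7 with both values were all called higher in the CCl4 library, beside 14.3% of all genes. Their log2 fold changes ran from 1.65 to 3.61 (median 3.03), and the list summed to 32.4 RPKM in oil and 258 RPKM in CCl4. The lectin gene Colec11 was at 9.36 and 89.3 RPKM and Reln, which encodes an extracellular glycoprotein, at 4.01 and 43.4 RPKM. Ngfr, Lhx2 and Hand2, also of that list, were listed at 0 in oil. Of 9 markers of activated stellate cells or myofibroblasts, the 7 with both values were all called higher, beside the same 14.3%. They were higher by 1.09 to 5.39 (median 3.88), and the list summed to 40.5 RPKM in oil and 636 RPKM in CCl4. It was led by the collagen genes Col3a1 at 19.6 and 290.1 RPKM and Col1a2 at 6.69 and 142 RPKM. The log2 fold change of Pdgfra, 3.35, lay within the range of both lists, as did that of Pdgfb, 1.81. That of Pdgfa, 1.24, lay within the range of the activated list only, and those of Pdgfc and Pdgfd lay below both. Their part in the receptor results was not tested. In bulk libraries a different number of cells of a type and a different amount of RNA per cell cannot be told apart.

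Markers of fibroblasts and mural cells were less uniform. Of 7 portal fibroblast markers 3 of the 6 with both values were called higher, beside 14.3% of all genes (median log2 fold change 1.30, sum 42.2 RPKM in oil and 111 RPKM in CCl4), with Gas6 at 30.0 and 48.7 RPKM and Dpt at 3.52 and 30.4 RPKM. Of 6 smooth muscle or pericyte markers, Cnn1 and Cspg4, a defining gene of pericytes, were listed at 0 in both libraries. In that list Mylk was at 6.75 and 14.6 RPKM, and Myh11, Notch3 and Actg2 were listed at 0 in oil and at 2.32, 1.72 and 1.63 RPKM in CCl4, and the sum was 6.75 RPKM in oil and 20.3 RPKM in CCl4.

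Markers of cells known to make PDGF ligands differed less than those of stellate cells. The 8 endothelial markers had a median log2 fold change of 0.71 (0.56 to 1.05; sum 470 and 782 RPKM), with Clec4g at 238 and 380 RPKM and Stab1 at 40.5 and 76.8 RPKM. The 7 macrophage markers in the table had a median of 1.10 (-0.15 to 2.71; sum 790 and 1499 RPKM), with Cd5l at 278 and 595 RPKM and Clec4f at 283 and 255 RPKM. Called higher were 1 of the 8 endothelial and 4 of the 7 macrophage markers, beside 14.3% of all genes. Platelet or megakaryocyte markers summed to 10.9 and 30.3 RPKM, and 2 of the 4 with both values were called higher, beside the same 14.3%. Their median was 1.14, with Pf4 at 4.46 and 16.8 RPKM and Ppbp at 3.85 and 7.70 RPKM. Gp1ba and Treml1 of that list were listed at 0 in both libraries. The ligand median of 1.03 lay between the endothelial and platelet medians. Pdgfa and Pdgfb lay above every endothelial marker and within the platelet range, and Pdgfc and Pdgfd lay within the endothelial range. Every ligand lay within the macrophage range. The part of these cells in the ligand results was not tested.

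The labelled cell type was present in both libraries, since Alb was at 8656 and 6476 RPKM and Apoa1 at 4086 and 1650 RPKM. Of 6 hepatocyte markers with both values 3 were called lower, beside 5.48% of all genes (9.71% after scaling to the median gene), with a median of -1.02 over the list, and the summed level was 15587 RPKM in oil and 9560 RPKM in CCl4. The seventh, the fetal gene Afp, was listed at 0 in oil and at 4.21 RPKM in CCl4. The other marker lists had medians of 0.82 (cholangiocyte, sum 50.9 and 170 RPKM, of which Spp1 made up 37.4 and 145 RPKM, with Sox9 and Cftr listed at 0 in both), 0.48 (lymphocyte, sum 12.8 and 23.6 RPKM), -0.82 (neutrophil, sum 300.4 and 206 RPKM) and -0.54 (erythroid, sum 3204 and 2152 RPKM).

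**Figure D3:**
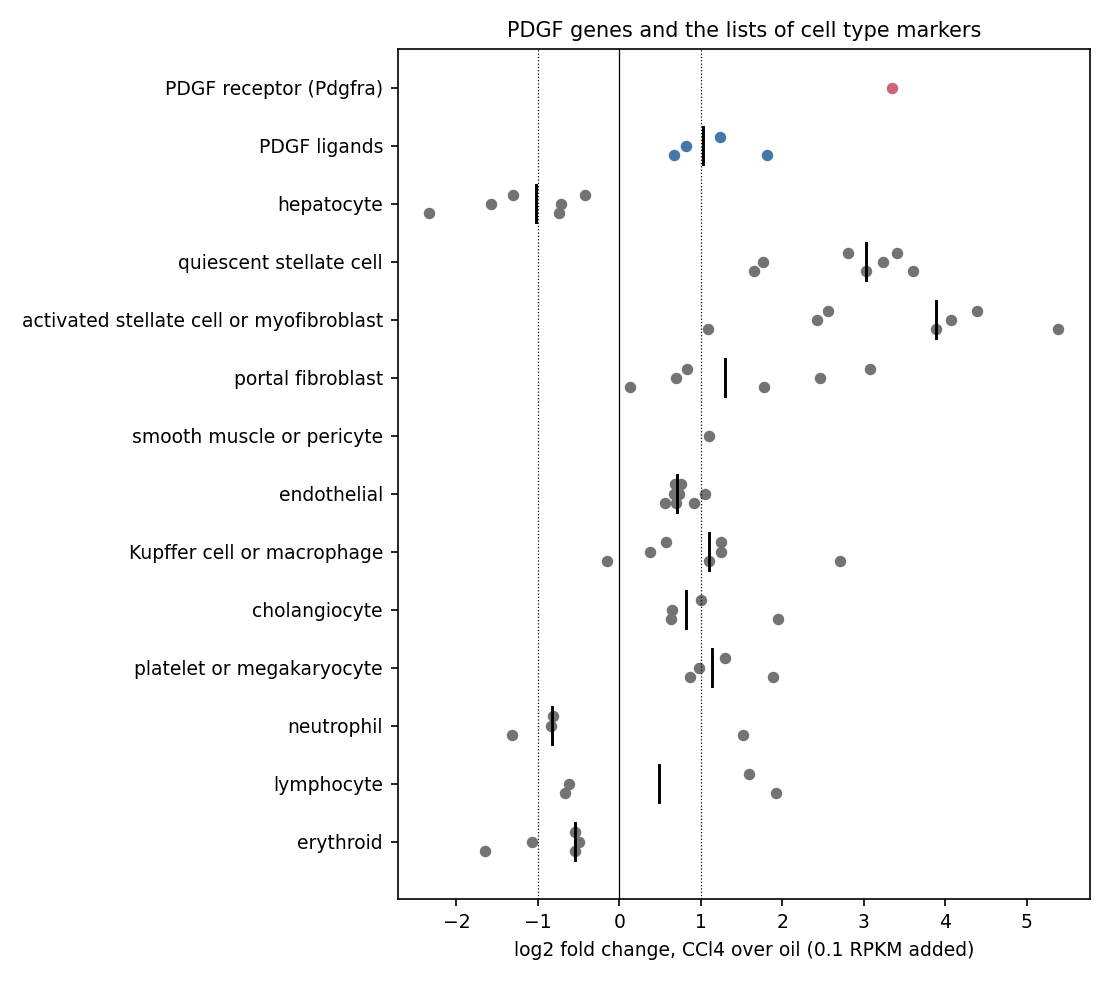
Log2 fold change (CCl4 over oil, 0.1 RPKM added) of Pdgfra, the 4 ligands and the marker genes of each cell type list, with 1 point per gene with both values, black bars at list medians and dotted lines at -1 and 1; genes listed at 0 are not plotted. Pdgfra at 3.35 lies among the points of the 2 stellate cell lists (medians 3.03 and 3.88), and the ligands run from 0.67 to 1.81, within the range of the macrophage markers. Pdgfa and Pdgfb lie above every endothelial marker (0.56 to 1.05), Pdgfc and Pdgfd lie among them, and Pdgfb reaches the lower part of both stellate cell lists.

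Beyond the ligands and receptors, 85 names of pathway and related genes were examined, of which 84 were in the table and 74 had both values. Among these 13 (17.6%) were called higher and 1 (1.35%) lower, against 14.3% and 5.48% of all genes, with a median log2 fold change of 0.48 against 0.30. A further 5 were listed at 0 in oil only, and 1, A2m, in CCl4 only. The 5 were Plat, Fosb, Egr2, Il34 and Flt3, named after their values were seen.

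Proteases of a list drawn up for ligand processing were mixed, and whether each of them cleaves a PDGF chain was not tested. Plau, urokinase, which cleaves PDGF-D, was at 1.61 RPKM in oil and 6.75 RPKM in CCl4, a log2 fold change of 2.0. Plat, tissue plasminogen activator, which cleaves PDGF-C, was listed at 0 in oil and at 6.89 RPKM in CCl4. Tmprss6, a membrane protease of hepatocytes and the most abundant of the list, was lower in CCl4, at 69.7 and 35.0 RPKM (-0.99), just short of the threshold, and the summed level of the list was 96.3 RPKM in oil and 74.4 RPKM in CCl4. Tmprss6 was the only protease of the list with a lower value in CCl4. The 3 proteases of the list with both values had a median of 0.05. Of these, 1 was called higher and 0 lower, beside 14.3% and 5.48% of all genes. Both plasminogen activators were thus above the level of the ligand they cleave in the CCl4 library, at 6.75 RPKM against 3.39 RPKM for Pdgfd and at 6.89 RPKM against 4.07 RPKM for Pdgfc.

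Among 8 genes of a list drawn up for ligand binding and co-receptors, 7 had both values. Whether the product of each binds PDGF or acts as a co-receptor was not tested. Of these, 3 were called higher and 1 lower, beside 14.3% and 5.48% of all genes, and the median was 0.90 beside 0.30. Sparc, a matrix protein that binds the B chain, was at 51.1 RPKM in oil and 315 RPKM in CCl4 (log2 fold change 2.62). Igfbp7, a secreted binding protein, was at 175 and 614 RPKM (1.81), and Thbs1, thrombospondin, was at 3.79 and 11.7 RPKM (1.60). Pzp, a hepatocyte-secreted protein of the alpha-2-macroglobulin family, was lower, at 495 and 174 RPKM (-1.51), and A2m of the same family was at 1.77 RPKM in oil and listed at 0 in CCl4.

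Of the 32 genes of receptor signalling, all had both values, 6 were called higher and 0 lower, beside 14.3% and 5.48% of all genes, and the median was 0.32 beside 0.30. The list as a whole was thus near the background, and its called genes are named by rule. Src, a kinase recruited to activated receptors, was at 1.12 RPKM in oil and 5.32 RPKM in CCl4 (log2 fold change 2.15). The adaptor Nck2 was at 2.75 and 8.33 RPKM (1.57), and the kinase Mapk3 was at 6.54 and 18.8 RPKM (1.51). The adaptors Gab1 (1.17) and Grb2 (1.04) and the phosphoinositide 3-kinase subunit Pik3r2, at 5.51 and 11.1 RPKM, passed the threshold narrowly. The remaining genes lay between a log2 fold change of -0.46 and the threshold.

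Of 12 genes that switch receptor signalling off, 1 was called higher and 0 lower, beside 14.3% and 5.48% of all genes. The median was 0.43. This was Spry1, an inhibitor of the Ras pathway, at 1.72 and 7.65 RPKM (2.09). Among 12 immediate early and growth genes, which growth factor signalling is known to induce, 9 had both values. Of these 9, 0 were called, beside 14.3% of all genes called higher and 5.48% lower. Their median was 0.18, with a range of -0.73 to 0.67. Fosb and Egr2 of that list were listed at 0 in oil and at 1.95 and 1.27 RPKM in CCl4. The median of this list was thus below that of all genes.

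The VEGF genes and the genes of the other class III receptor kinases are the closest relatives of the PDGF family. Of the related ligands 6 had both values, with a median of 0.89 and a range of -0.99 to 1.71. Of these 6, 1 was called higher and 0 lower, beside 14.3% and 5.48% of all genes. The 1 called was Vegfc, a growth factor of lymphatic vessels, at 1.82 and 6.19 RPKM (1.71). Vegfa, the most abundant of them in oil, was lower in CCl4, at 16.5 and 8.23 RPKM (-0.99), just short of the threshold. Il34, a ligand of Csf1r, was listed at 0 in oil and at 5.54 RPKM in CCl4. Of the related receptors 5 had both values, with a median of 0.84 and a range of 0.22 to 1.24. Of these 5, 1 was called higher and 0 lower, beside the same shares of all genes. The 1 called was Csf1r, the receptor that maintains macrophages, at 75.5 and 179 RPKM (1.24). Flt3, the receptor of dendritic cell precursors, was listed at 0 and at 1.63 RPKM. The log2 fold change of Pdgfra, 3.35, was above that of each of the related receptors with both values. In level, Pdgfrb at 16.8 RPKM in CCl4 stood below Csf1r, Kdr (69.3 RPKM) and Flt4 (35.4 RPKM) and above Flt1 (9.40 RPKM), Kit (9.06 RPKM) and Flt3.

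**Figure D4:**
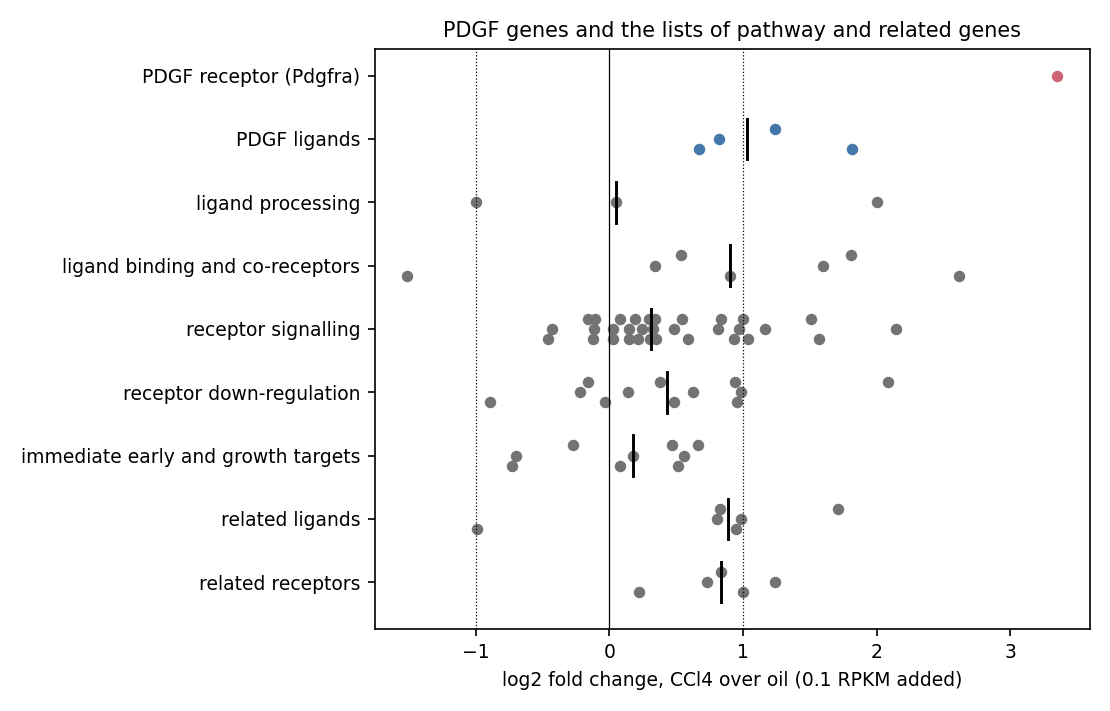
Log2 fold change (CCl4 over oil, 0.1 RPKM added) of Pdgfra, the 4 ligands and the genes of each pathway list, with 1 point per gene with both values, black bars at list medians and dotted lines at -1 and 1; genes listed at 0 are not plotted. Pdgfra at 3.35 lies to the right of every other point, and the medians of the pathway lists run from 0.05 to 0.90.

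For each of the 5 genes with both values, the 3 genes nearest in log2 fold change were taken among genes of a similar mean level, a measure of likeness that rests on only 2 libraries. For Pdgfra, with 1758 such genes, these were Phlda3 at 1.23 and 13.6 RPKM, Scarf2 at 1.06 and 11.5 RPKM and Adamts2, a procollagen-processing protease, at 1.01 and 11.5 RPKM. Those of Pdgfb were Incenp, Cdc42ep3 and Tgfb3, a transforming growth factor beta ligand, of 1692. The genes nearest to Pdgfa were Kdm2b, Sufu and Pik3r6, of 1322. For Pdgfc they were Pola2, Nckipsd and Galnt15, of 1544, and for Pdgfd they were Trim7, Ppp2r3c and Ankra2, of 1385.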

How the data were processed

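RNA-seq of total RNA from primary hepatocytes was analysed in 1 oil library and 1 CCl4 library, grouped by their labels. The submitters' processing notes name CASAVA 1.4, TopHat2 and the build mm10, with no role. The counting program, its strand setting and the annotation version are not given in the sources used here. The authors deposited RPKM values for 27457 mRNA transcripts, in which no value lies between 0 and 1 RPKM. For lncRNAs absent from the annotation the authors deposited whole read counts, lengths in bases (the other value used) and RPKM without that limit. The table of annotated lncRNAs was used only in recovering the library totals, together with the mRNAs. The authors' own log2 fold changes, p-values and q-values stand in the same tables and were neither used nor compared, so that listed zeros were not restored from them.

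Mouse symbols came from the RefSeq annotation of GRCm38.p6, by identifier (27045 transcripts, 20313 genes). Where a gene had several transcripts, the one with the highest mean stood for it. Folds were computed for genes with a value in both libraries. The members and gene lists were chosen with earlier results of these data known. Genes named are all members, every called gene of a pathway list (above 6, the 3 furthest each way), the 2 most abundant genes of each marker list, given where PDGF genes bear on it, and the 3 nearest genes of each member. Exceptions are stated.

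The library totals, 57992574 and 64655548 reads, gave whole reads (within 0.02) for 97.7% of 174 and 97.3% of 186 genes under 400 bases. The shortest length giving whole reads in both libraries gave lower bounds of each member's reads. For 1397 new lncRNAs with deposited counts these were equal in 78.3% and above in 0. That none was above holds by construction where the totals are right. The totals used there came from the deposited counts themselves, 62438197 reads in oil and 70960849 in CCl4, and differ from the recovered ones. The log2 ratios of new lncRNAs rest on these totals too. The intervals built on the members' lower bounds are no narrower than the true counts would give, provided the recovered totals are right. The procedure was tested on simulated data. The 8 alternatives were 2 pseudocounts, 2 scalings, a filter on low values, a stricter fold, summed transcripts and listed zeros set to the limit. Python 3.11.15, numpy 2.4.6, pandas 2.3.3, scipy 1.17.1 and matplotlib 3.10.9 were used.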

Additional observations from a re-analysis of the deposited data

Results flagged for a closer look

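lncRNAs absent from the annotation, which no comparison above used, were searched within 200000 bases of the PDGF genes. This window was chosen after the data had been seen, and it held 8 transcripts, of which 4 had a PDGF gene as the nearest coding gene. Of these 4, 2 had more reads for the library size in the CCl4 library than counting error covers, beside 37% of all 1443 such lncRNAs with reads (26.8% were lower by the same measure), and nothing particular to the 4 is read from this. TCONS_00062753, at chr5:138996166-138997670 on the plus strand, lies inside the annotated span of Pdgfa, which is on the minus strand, and 972 bases from the nearer of the Pdgfa promoter windows. It had 50 reads (0.532 RPKM) in the oil library and 168 reads (1.57 RPKM) in the CCl4 library, a log2 ratio of 1.56 (95% exact Clopper-Pearson interval 1.10 to 2.05, counting error only), beside 1.29 for Pdgfa without an added value. Whether reads were counted by strand is not given in the sources used here, so reads of Pdgfa and of this transcript cannot be told apart.

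TCONS_00027179, at chr15:80043690-80044952 on the plus strand, lies 19076 bases from Pdgfb and overlaps the annotated gene Gm41361. It had 111 reads in oil and 168 in CCl4, a log2 ratio of 0.41 (0.06 to 0.77), beside 1.87 for Pdgfb. A second isoform of the same span, TCONS_00027178, had 93 and 138 reads, a log2 ratio of 0.38 (-0.01 to 0.78). A further lncRNA inside the Pdgfa span, TCONS_00062754, had 20 and 34 reads, a log2 ratio of 0.58 (-0.26 to 1.46).

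The other 4 lay nearer to another coding gene. In the window of Pdgfrl, TCONS_00077691 had 22 reads in oil and 6 in CCl4, a log2 ratio of -2.06 (-3.65 to -0.71), and TCONS_00077693 had 20 and 0 reads, so both were lower in CCl4 beyond counting error while Pdgfrl itself was listed at 0 in oil and at 1.38 RPKM in CCl4. Their nearest coding gene was Fgl1. In the window of Pdgfra, TCONS_00063218 (nearest to Chic2) had 6 and 20 reads, a log2 ratio of 1.55 (0.18 to 3.16), and in that of Pdgfrb, TCONS_00039108 (nearest to Slc26a2) had 31 and 54 reads, a log2 ratio of 0.62 (-0.05 to 1.30).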

How the results depend on the processing

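No paired analysis was possible because each condition has 1 library, and for the same reason no replicate could be left out. The direction of every PDGF gene with both values was kept under each of the 8 alternatives that gave it a value. The share of all genes called the same way under each setting is given in brackets after a count. The count of PDGF genes called higher, 3 (14.3%), became 2 (10.1%) with a pseudocount of 1 RPKM, where Pdgfa came to 0.90. It was also 2 (7.99%) with scaling to the median gene, where Pdgfa came to 0.95. Pdgfra alone remained, a count of 1, when genes under a mean of 5 RPKM were left out (13.9%) or the threshold was raised to 2 (1.76%). The count was 4 (15.5%) with listed zeros taken as 1 RPKM, which gave lower bounds of 3.94 for Pdgfrb and 0.43 for Pdgfrl. The ligand median, 1.03, was 0.77 with a pseudocount of 1 RPKM and 0.73 with scaling to the median gene, and no ligand reached a mean of 5 RPKM. The value for Pdgfra, 3.35, was 2.71 with a pseudocount of 1 RPKM.

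Of the pathway genes, 13 higher (14.3% of all genes) became 8 (13.9%) when means under 5 RPKM were left out and 4 (1.76%) at the threshold of 2. The 1 lower (5.48% of all genes) became 2 (5.59%) without a pseudocount and 5 (9.71%) with scaling to the median gene. It became 3 (6.18%) without the 10 most abundant mRNAs in the library size and 0 (0.702%) at the threshold of 2. Over all genes, scaling to the median gave 854 higher and 1038 lower, the threshold of 2 gave 188 higher and 75 lower, and leaving out means under 5 RPKM gave 951 higher. Of all values recomputed, 22 moved by more than 1.5 times for a count or by more than the distance from the middle to the end of the counting interval for a fold change, and 70 moved by less or not at all. Why values moved was not tested beyond what a stricter limit removes by construction. All comparisons are limited by having 1 library per condition, and levels behind a listed 0 were not analysed here.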
